A study of Mus musculus with 8 samples.

Results

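The liver X receptor (LXR) targets described here are 10 genes whose products lie outside fatty acid synthesis: the sterol exporters Abca1, Abcg1, Abcg5 and Abcg8, the phospholipid genes Pltp and Lpcat3, and Mylip, Arl4c, Smpdl3a and Tnfaip2. They were chosen by symbol, from array probe sets assigned to a single gene, and the brightest probe set by its mean over 8 arrays stood for each gene. Of the 10, 9 had such a probe set, among 22180 genes in all, and Arl4c was not analysed here. All 9 lay above the median gene level, a log2 intensity of 5.88. Whether each of the 10 responds to LXR in mouse liver was not checked.

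Mouse liver RNA, 8 samples in all, came from 3-month-old animals on normal chow. The livers were taken 2 weeks after an intravenous injection of adeno-associated virus (AAV), at 5 pm, which is ZT10. In the 4 knockout livers (NCOR_KO) the virus expressed Cre, the recombinase that removes floxed DNA, in mice with a floxed NCOR gene, and in the 4 control livers (WT) it expressed GFP. Control livers are labelled wild-type, but the design text describes floxed mice for either virus, so the control genotype remains uncertain. The virus goes with the group, so effects of Cre itself and of losing NCOR cannot be told apart. The promoter that drives Cre, the strain and the sex are not stated in the labels, and the targeted gene was not analysed here, so the labels were not checked against it.

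Median array intensity ran from 41.0 to 44.1. The labelled tissue was checked on 12 hepatocyte markers, whose summed intensity was 85610 to 87030 in control and 84410 to 86150 in knockout arrays, with Alb and Cyp2e1 among the brightest genes of the table. WT replicate 2 (-20.5) and NCOR_KO replicate 1 (-12.2) stood apart on the second principal component, so results were also computed without that pair. The replicates are labelled biological without naming the animals, and p-values cover no more than the spread among these arrays, which may be technical in part. In whole tissue a lower signal from fewer cells of a type and one from less RNA per cell cannot be told apart.

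LXRα, encoded by Nr1h3, and LXRβ are nuclear receptors activated by oxysterols. They bind DNA with the retinoid X receptor (RXR) at DR4 elements, direct repeats of the hexamer AGGTCA with a spacer of 4 bases, and without a ligand they can hold the corepressors NCOR or SMRT and the deacetylase HDAC3 at target genes. Their liver targets move sterol into bile and onto lipoproteins and remodel phospholipids, beside the better known lipogenic targets. The comparison asks which of these transcripts differed in liver after NCOR removal.

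Of the 9 measured genes 2 rose in knockout liver (Pltp and Lpcat3), 0 fell and 7 did not pass, by limma at an adjusted p under 0.05 over all 22180 genes, where 0.816% of genes rose and 0.834% fell. At an unadjusted p under 0.05 the counts were 6 higher and 0 lower, against 7.75% and 8.15% of all genes. The knockout arrays lay wholly above the control arrays for 4 of the 9 (Pltp, Lpcat3, Abca1 and Smpdl3a) and wholly below them for 0, against 4.9% and 5.49% of all genes. Changes were above 0 in 7 of the 9 and in 52% of all genes, and the median log2 change was 0.26 over the 9 and 0.01 over all genes. These shares are over genes of every level, while all 9 lay above the median gene level. A fit to genes at or above that level called more rises and more falls than the fit to all genes. The 9 were also chosen with earlier results of these data known.

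**Figure D1:**
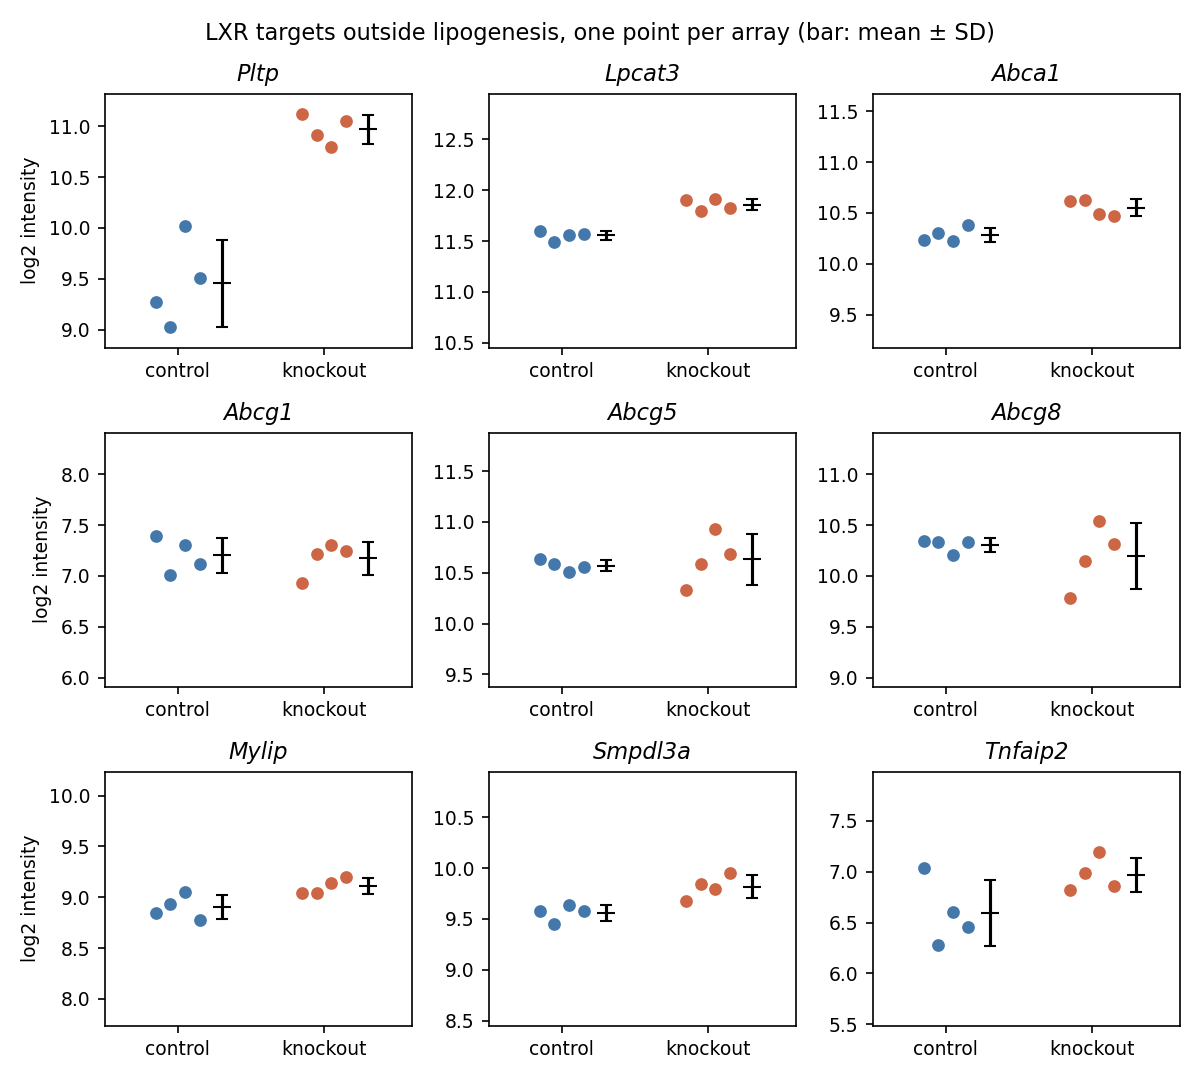
Log2 intensity of the 9 measured genes, a point for each array (replicates 1 to 4 from left to right), with the mean and SD of each group of 4 beside it. Every panel spans the same range of log2 units. Pltp shows the widest step, from 9.46 to 10.97, and Abcg5 and Abcg8 scatter more in knockout than in control liver.

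Pltp encodes the phospholipid transfer protein, which carries phospholipids between lipoproteins and remodels HDL. Its log2 intensity was 9.27, 9.02, 10.02 and 9.51 in control replicates 1 to 4 and 11.12, 10.91, 10.80 and 11.05 in the knockouts. The lowest knockout array stood 0.78 above the highest control array, so the groups were far from overlapping, and the controls were the more scattered group (SD 0.43 against 0.14, n = 4 each). Pltp rose 2.86-fold (log2 change 1.52 ± 0.18 SE, 95% interval 1.12 to 1.91, limma adjusted p = 0.00339), a larger absolute change than in 99.9% of genes. The call held in all 17 alternative fits, where the lowest change was 1.32. With single arrays left out it ran from 1.37 (without WT replicate 2) to 1.70 (without WT replicate 3). The control array highest in Pltp, replicate 3, was also highest in Cyp7a1 (11.86), and the lowest, replicate 2, was lowest there too (9.43). These control extremes are not particular to Cyp7a1. The macrophage marker Vsig4 (10.39 and 9.14) and the endothelial marker Robo4 (7.84 and 7.54) shared them. Among knockouts the highest array was replicate 1 for Pltp and replicate 4 for Cyp7a1 (11.85), while replicate 3 was lowest for both.

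Lpcat3 encodes the lysophosphatidylcholine acyltransferase that places polyunsaturated fatty acids into membrane phospholipids. Its log2 intensity was 11.60, 11.49, 11.56 and 11.57 in control and 11.90, 11.80, 11.91 and 11.83 in knockout arrays. Both groups were tight, and a gap of 0.19 lay between them. The rise was 1.23-fold (0.30 ± 0.06 SE, 95% interval 0.18 to 0.43, limma adjusted p = 0.0326). Leaving out any one of the 8 arrays ended the call, with adjusted p-values from 0.0577 to 0.0843 and changes from 0.28 to 0.32.

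The bases before the start sites of both genes that rose are shown, since these are the stretches in which a DR4 was looked for (RefSeq, GRCm38.p6, each in the direction of its gene). Pltp lies on the minus strand at chr2:164857709-164857958 and Lpcat3 on the plus strand at chr6:124662854-124663103, both 250 bases long.
Pltp: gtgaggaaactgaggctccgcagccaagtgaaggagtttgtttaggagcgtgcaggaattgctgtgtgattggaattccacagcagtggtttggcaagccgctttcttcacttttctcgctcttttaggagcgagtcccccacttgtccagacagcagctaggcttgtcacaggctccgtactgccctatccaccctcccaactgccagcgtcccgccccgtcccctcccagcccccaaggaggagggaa
Lpcat3: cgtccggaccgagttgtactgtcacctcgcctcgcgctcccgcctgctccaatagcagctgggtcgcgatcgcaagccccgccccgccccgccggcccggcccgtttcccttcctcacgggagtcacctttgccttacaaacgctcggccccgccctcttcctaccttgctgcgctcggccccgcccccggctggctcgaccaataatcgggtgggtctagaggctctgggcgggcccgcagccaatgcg
Both are in lower case throughout because neither holds AGGTCA or a DR4 on either strand. GC made up 57.6% of the Pltp stretch and 70.0% of the Lpcat3 stretch.

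Promoter windows, from 250 bases before to 50 after a start site, were at hand for 8 of the 10 genes, Abcg1 and Smpdl3a not among them. These were 9 windows in all, since Abcg8 has a second start. The shares below count windows, not genes. AGGTCA occurred on either strand in 1 of these 8, Tnfaip2, at positions 29 to 34 after the start, and in 16.3% of all 32851 windows. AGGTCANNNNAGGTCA with at most 1 mismatch in each hexamer occurred in 0 of the 8 and in 1.75% of all windows. At that share a match among 9 windows would be rare, so its absence says little. With up to 3 mismatches in all, a rule chosen after the sequences had been seen, Abca1 and Arl4c held it, as did 21.9% of all windows. Matches are letters in a window, not shown to be bound, and elements outside these windows were not searched.

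Abca1, the exporter that loads cholesterol and phospholipid onto apolipoprotein A-I, came next to the threshold. Control arrays read 10.23, 10.30, 10.23 and 10.38 and knockout arrays 10.62, 10.62, 10.49 and 10.47. Every knockout array was above every control, by at least 0.10. The difference was 1.20-fold (0.27 ± 0.06 SE, 95% interval 0.12 to 0.41) with a limma adjusted p of 0.0751. It passed with a trended, robust variance (adjusted p = 0.0381) and among genes at or above the median level (adjusted p = 0.0440), and in 0 of the fits that left out an array.

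The Abca1 promoter is printed because a DR4 close to its start is a known LXR element, best described in the human gene. The stretch is on the minus strand at chr4:53159896-53160145 (GRCm38.p6), and capitals mark the looser DR4 match, at positions -67 to -52 from the start. It reads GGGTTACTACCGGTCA on the opposite strand.
Abca1: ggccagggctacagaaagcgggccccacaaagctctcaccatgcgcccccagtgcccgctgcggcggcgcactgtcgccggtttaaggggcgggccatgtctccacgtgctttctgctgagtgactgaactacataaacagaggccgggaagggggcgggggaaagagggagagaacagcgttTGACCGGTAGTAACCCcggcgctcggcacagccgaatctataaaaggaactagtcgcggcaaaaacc

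Abcg5 and Abcg8 encode the subunits of the heterodimeric transporter that secretes cholesterol and plant sterols into bile. They are neighbours on chromosome 17 with divergent starts, and the 109 bases between the starts are shown because both genes are transcribed away from them (plus strand, chr17:84683012-84683120, GRCm38.p6). Neither AGGTCA nor a DR4, also in its looser form, occurs there.
Abcg5-Abcg8: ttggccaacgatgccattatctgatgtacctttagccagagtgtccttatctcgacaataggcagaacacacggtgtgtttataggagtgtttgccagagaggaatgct
A second start of Abcg8 upstream in the annotation was searched too, with no match.

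Abcg5 read 10.63, 10.59, 10.51 and 10.55 in control arrays and 10.33, 10.58, 10.93 and 10.68 in knockout arrays. Abcg8 read 10.34, 10.33, 10.21 and 10.34 in controls and 9.78, 10.15, 10.54 and 10.31 in knockouts. For both genes the lowest and the highest of all 8 arrays were knockouts, replicate 1 and replicate 3, and replicates 2 and 4 came between in the same order. The SD was 0.05 in control and 0.25 in knockout arrays for Abcg5, and 0.07 and 0.32 for Abcg8; no test of spread was made. The mean differences, 0.06 ± 0.11 SE (limma adjusted p = 0.827) and -0.11 ± 0.13 SE (limma adjusted p = 0.738), did not pass. Their 95% intervals, -0.18 to 0.30 and -0.40 to 0.19, leave room for a rise of up to 1.23-fold or a fall of up to 1.13-fold in Abcg5, and for a rise of up to 1.14-fold or a fall of up to 1.32-fold in Abcg8. The sign of Abcg5 turned without NCOR_KO replicate 3 (-0.04) and that of Abcg8 without NCOR_KO replicate 1 (0.03).

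Abcg1, which passes cholesterol to HDL and is prominent in macrophages, read 7.39, 7.01, 7.30 and 7.12 in control and 6.93, 7.21, 7.30 and 7.24 in knockout arrays. The groups lay on top of each other. The difference was -0.03 ± 0.10 SE (95% interval -0.26 to 0.20, limma adjusted p = 0.911), with a sign that turned without WT replicate 1 (0.03), WT replicate 3 (8e-04) or NCOR_KO replicate 1 (0.05). Of the 4 exporters, then, 0 rose, 0 fell and 4 did not pass. At an unadjusted p under 0.05, 1 (Abca1) was higher and 0 lower, against 7.75% and 8.15% of all genes.

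**Figure D2:**
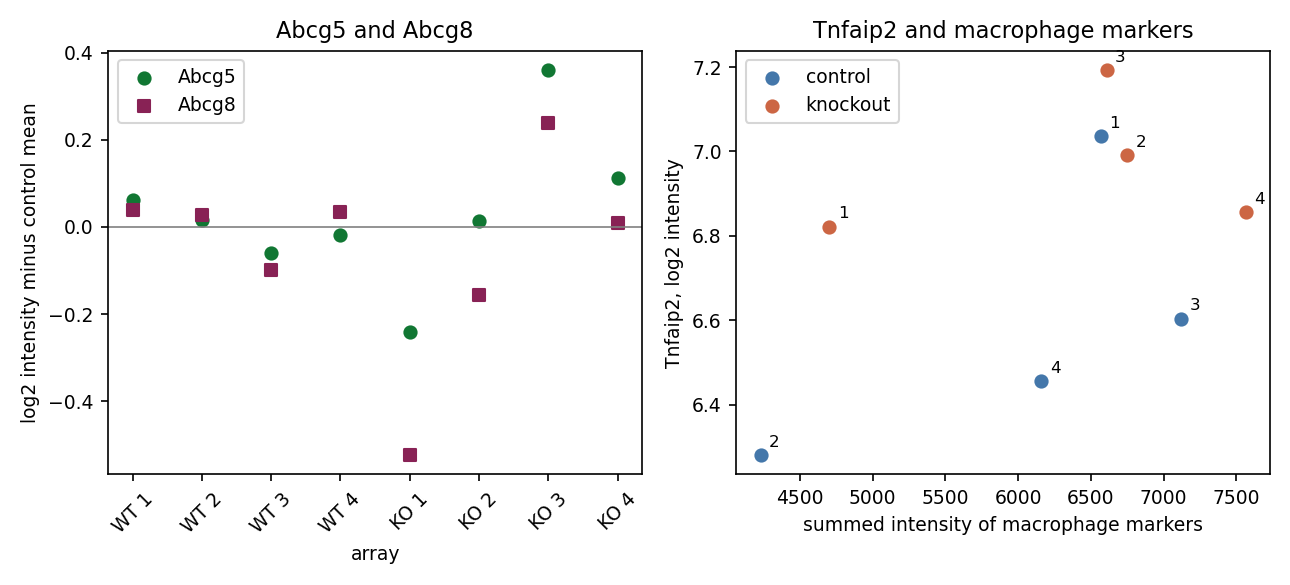
Left, Abcg5 and Abcg8 in each array as log2 intensity minus the mean of the 4 controls. The lowest points are NCOR_KO replicate 1 (-0.24 and -0.52) and the highest NCOR_KO replicate 3 (0.36 and 0.24). Right, log2 intensity of Tnfaip2 against the summed intensity of 14 macrophage markers, numbered by replicate. WT replicate 2 and NCOR_KO replicate 1 are lowest in both measures within their groups, as they are for summed endothelial markers, which are not drawn.

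Mylip encodes the ubiquitin ligase that sends the LDL receptor to degradation. Controls read 8.85, 8.93, 9.05 and 8.77 and knockouts 9.04, 9.04, 9.14 and 9.20. The groups overlapped by a single control, replicate 3, which lay 0.01 above the lowest knockout. The difference of 0.21 ± 0.07 SE (95% interval 0.04 to 0.37) had a limma adjusted p of 0.205, and a two-sided exact permutation test over 70 splits of the arrays gave 0.0857, where the smallest possible p is 0.0286.

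Smpdl3a encodes a secreted phosphodiesterase related to acid sphingomyelinase, an LXR target known from human macrophages. On its brighter probe set controls read 9.57, 9.45, 9.64 and 9.57 and knockouts 9.68, 9.85, 9.79 and 9.95. The groups were apart by 0.04. The difference was 0.26 ± 0.07 SE (95% interval 0.10 to 0.42, limma adjusted p = 0.112). Its other probe set was far dimmer (6.32 in control, 6.36 in knockout) and differed by 0.05 ± 0.10 SE, so the 2 probe sets disagreed in size, and their mean gave 0.15. It was the only measured gene of the 9 with more than 1 probe set.

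Tnfaip2 is named for its induction by tumour necrosis factor. Controls read 7.04, 6.28, 6.60 and 6.45 and knockouts 6.82, 6.99, 7.19 and 6.86. Control replicate 1 lay inside the knockout range. The difference was 0.37 ± 0.15 SE (95% interval 0.05 to 0.70, limma adjusted p = 0.251; exact two-sided permutation p = 0.114). Without WT replicate 1 it was 0.52, with an adjusted p of 0.0719.

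Markers of other liver cells were set beside these values, since Abca1, Abcg1, Smpdl3a and Tnfaip2 are also expressed outside hepatocytes. The summed intensity of 14 macrophage markers was 4228 to 7121 in control and 4702 to 7564 in knockout arrays. It was lowest in WT replicate 2 and NCOR_KO replicate 1, which were also the lowest arrays of their groups for Abcg1, Smpdl3a and Tnfaip2. The match is not particular to macrophage markers, since the summed endothelial markers were lowest in the same arrays (8505 and 10110). Abca1 did not share it, being lowest in WT replicate 3 (10.23) and NCOR_KO replicate 4 (10.47). WT replicate 2 was also the lowest control for Pltp (9.02) and Lpcat3 (11.49), and its median intensity (41.0) was the lowest of all arrays. NCOR_KO replicate 1 was not the lowest knockout for Pltp or Lpcat3. Of the 14 macrophage markers 0 passed, also at an unadjusted p under 0.05, and their median change was 0.10. No marker was at 0, since an array always reads some signal, and Vsig4 and C1qb were the brightest of the list.

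Endothelial markers summed to 8505 to 10280 in control and 10110 to 11570 in knockout arrays, with all 15 above 0 (median 0.22). Of the 15, 1 rose (Robo4, 0.35 ± 0.07 SE, limma adjusted p = 0.0429), 0 fell and 14 did not pass, and 10 were higher and 0 lower at an unadjusted p under 0.05. That median is close in size to the changes of Abca1, Smpdl3a and Mylip. The change of Lpcat3 (0.30) also lay within the range of the 15, 0.04 to 0.35. Any part of the endothelial difference in these changes was not tested. Of 12 stellate and fibroblast markers, led by Dcn and Ecm1, 0 passed (median 0.02; 0 also at an unadjusted p under 0.05), and their sums were 6758 to 7367 and 6656 to 7792. Of 6 cholangiocyte markers, with Sox9 the brightest, 1 rose (Epcam, 0.41), 0 fell and 5 did not pass (median 0.23, all 6 above 0; 4 higher and 0 lower at an unadjusted p under 0.05), with sums of 356 to 368 and 414 to 478. Of 10 lymphocyte and neutrophil markers 2 rose (Cd3e, 0.47, and Cd79a, 0.41), 0 fell and 8 did not pass, among them the brightest, Nkg7, and 9 lay below the median gene level (3 higher and 0 lower at an unadjusted p under 0.05), with sums of 327 to 361 and 363 to 394. The 1 erythroid marker measured, Slc4a1, stood at -0.03. Hepatocyte markers, 12 of 12 not passing, had a median change of -0.01. At an unadjusted p under 0.05, 0 were higher and 1 lower, against 7.75% and 8.15% of all genes. Knockout arrays lay wholly below the controls for 3 of the 12 (Ttr, Serpina1a and F2) and wholly above for 0, against 5.49% and 4.9% of all genes. Several, such as Alb (13.5) and Cyp2e1 (13.3), read near the highest log2 intensity of any probe set (13.7), where a change may be hard to see. Without single arrays the limma adjusted p reached 0.111 for Robo4, 0.127 for Epcam, 0.116 for Cd3e and 0.0573 for Cd79a.

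The receptors were measured as well. Nr1h3 was 8.75, 8.67, 8.82 and 8.76 in control and 8.53, 8.56, 8.63 and 8.58 in knockout arrays, all 4 knockouts below all 4 controls. The difference of -0.18 ± 0.06 SE had a limma adjusted p of 0.168. Rxra, its RXR partner, also had every knockout below every control, at -0.18 ± 0.06 SE (limma adjusted p = 0.183). Of 4 genes for receptors and partners 0 rose, 0 fell and 4 did not pass. At an unadjusted p under 0.05, 0 were higher and 2 lower, against 7.75% and 8.15% of all genes.

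The lipogenic LXR targets give the nearest comparison, and of 10 measured 6 rose, 0 fell and 4 did not pass. At an unadjusted p under 0.05, 8 were higher and 0 lower. Over all genes 0.816% rose and 0.834% fell, and 7.75% and 8.15% were higher and lower at that unadjusted p. The median change was 0.56, beside 0.26 for the 9 genes described above. Srebf1, the regulator of lipogenesis, stood at 0.60 ± 0.11 SE, the desaturase gene Scd1 at 0.34, the carboxylase gene Acaca at 0.54, Pnpla3 at 0.96, lipoprotein lipase, Lpl, at 0.88 and the elongase gene Elovl5 at 0.59. Fasn, the fatty acid synthase gene, missed the threshold narrowly (0.73 ± 0.16 SE, limma adjusted p = 0.0501), with every knockout array above every control. The list was drawn broadly, and Lpl encodes a lipase, not an enzyme of fatty acid synthesis. Lpl and Elovl5 passed whichever array was left out, though the mean of the Lpl probe sets gave 0.49 in place of 0.88. The count of 6 became 2 without WT replicate 1 or NCOR_KO replicate 2, 3 without NCOR_KO replicate 1 or 3, and 3 without WT replicate 2 and NCOR_KO replicate 1 together. It was 4 without WT replicate 2 or NCOR_KO replicate 4, and 5 without WT replicate 3 or 4. With centred arrays, among genes at or above the median level, or with the mean of probe sets it was 7. Without single arrays the limma adjusted p of Srebf1 reached 0.0962 (missing the threshold without WT replicate 1 and NCOR_KO replicates 1, 2 and 4), that of Scd1 to 0.0695 (without WT replicates 1 and 4 and NCOR_KO replicates 1, 2 and 3) and that of Pnpla3 to 0.0934 (without WT replicates 1, 2 and 4 and NCOR_KO replicates 2 and 3). Acaca passed only without WT replicate 4, and reached 0.101 otherwise. The 2 lists were chosen with earlier results known, and the difference between them was not tested.

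**Figure D3:**
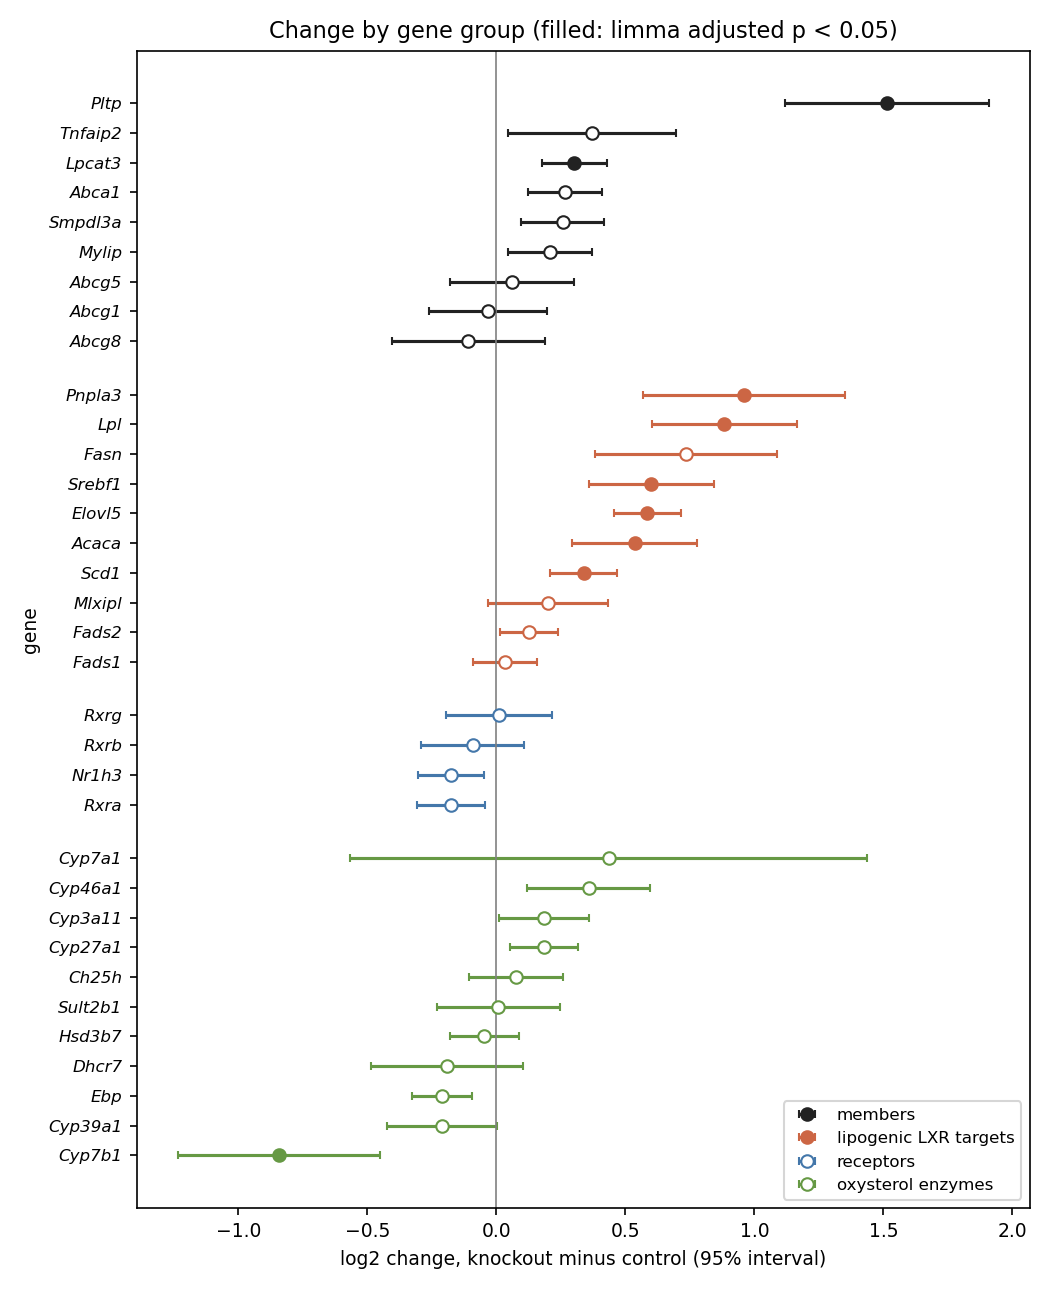
Log2 change, knockout minus control, with its 95% interval from limma for the 9 measured genes, the lipogenic LXR targets, the receptors and the oxysterol enzymes. Filled points had an adjusted p under 0.05. Pltp (1.52) lies to the right of every other gene drawn, while Abcg1, Abcg5 and Abcg8 lie around 0.

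Enzymes that make or clear oxysterols, the LXR ligands, had 11 measured members, of which 0 rose, 1 fell and 10 did not pass. Cyp7b1, an oxysterol hydroxylase, fell by 0.84 on the log2 scale (SE 0.18, limma adjusted p = 0.0449), a call that held without WT replicate 3 (adjusted p = 0.0115) and was lost without any other single array (up to 0.119). It was also lost with a trended, robust variance (adjusted p = 0.0612), with array weights (adjusted p = 0.0560) and without WT replicate 2 and NCOR_KO replicate 1 together (adjusted p = 0.135). Cyp7a1, which starts bile acid synthesis and is an LXR target in mice, ran from 9.43 to 11.86 within the controls alone and differed by 0.44 ± 0.45 SE (limma adjusted p = 0.682), or by -0.02 without WT replicate 2. At an unadjusted p under 0.05, 3 of the 11 were higher and 2 lower, against 7.75% and 8.15% of all genes.

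Sterol carriers and receptors around these exporters had 0 of 10 past the threshold, and 0 also at an unadjusted p under 0.05. The endothelial lipase gene Lipg differed by 0.27 (limma adjusted p = 0.528), a value that rests on WT replicate 1 (9.14, beside 9.96 to 10.14 in the other controls) and is 0.0369 without it. The HDL receptor gene Scarb1 differed by 0.15 (limma adjusted p = 0.427), or by 0.0873 without NCOR_KO replicate 3, and Apoe stood at -0.04. Of 10 relatives of Lpcat3, Smpdl3a and Abcg1 again 0 passed (1 higher and 0 lower at an unadjusted p under 0.05). Lpcat2 and Lpcat1 stood at 0.22 and 0.21, and Lpcat1 at 0.12 without WT replicate 2. Of 7 genes listed as macrophage LXR targets 0 passed (1 higher and 0 lower at an unadjusted p under 0.05). The widest change was that of Abcd2, a peroxisomal ABC transporter gene, at 0.89 ± 0.27 SE (limma adjusted p = 0.141). Whether Abcd2 is an LXR target in macrophages was not checked.

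**Figure D4:**
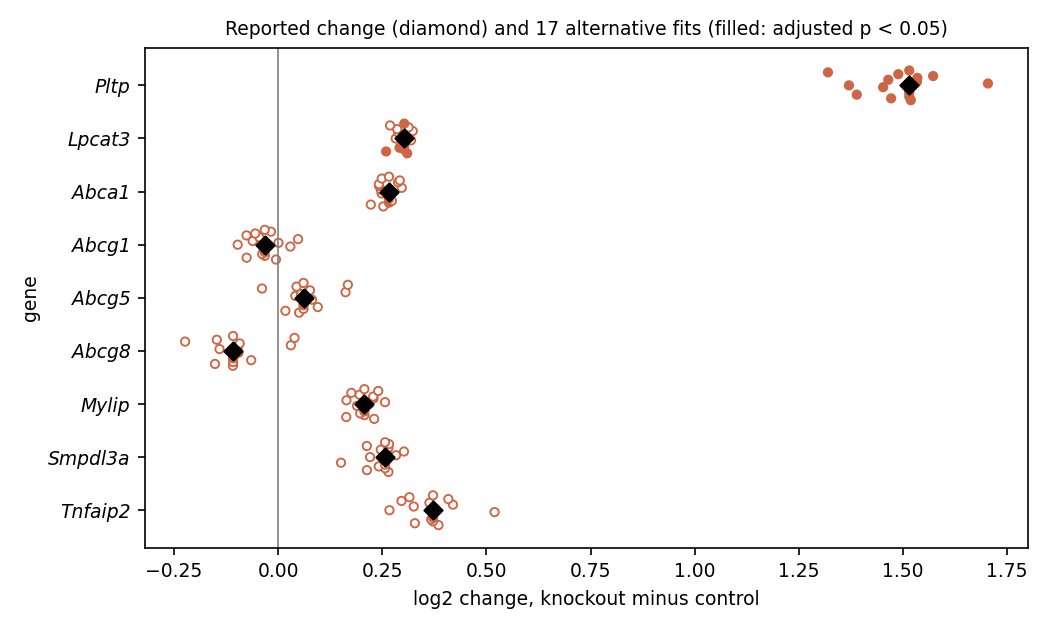
Log2 change of the 9 measured genes as reported (diamond) and under 17 alternative fits (circles, filled where the adjusted p was under 0.05). Pltp is filled throughout, Lpcat3 in 7 of 17 and Abca1 in 2 of 17, and the other 6 in none.

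Across the 17 alternative fits the sign was kept by Pltp, Lpcat3, Abca1, Mylip, Smpdl3a and Tnfaip2 in every one. Their spread among fits differed: Abca1 ran from 0.22 to 0.30, Mylip from 0.16 to 0.26, Smpdl3a from 0.15 to 0.30 and Tnfaip2 from 0.27 to 0.52. Abcg1, Abcg5 and Abcg8 crossed 0.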

How the data were processed

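The authors deposited probe-set intensities on a linear scale for 8 1-colour Affymetrix Mouse Gene 2.0 arrays, made from Trizol-extracted RNA labelled with biotin, per the labels. Per the submitters' processing notes RMA and Partek were used. No version, filter or genome build is named there. Log2 of the intensities was taken with no further normalization. Of 41345 probe sets, 16010 had no assigned gene and 1814 several, and 23521 gave 22180 genes, with no filter on dim ones.

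Knockout and control arrays were fitted in limma 3.58.1 under R 4.3.3, using lmFit and eBayes with group as the one term, with p-values adjusted by Benjamini-Hochberg over all genes and a threshold of 0.05, and single genes also by exact permutation. The steps were tested on simulated data with independent noise, where calls were required only for the largest planted changes. Recovery of changes as small as that of Lpcat3 is not reported here. Of 146 symbols in the gene lists, 127 were measured. All members were named, with list genes past the threshold, the 2 of widest change in each list (brightest, for markers) and a fixed set. A few more list genes were named where they bear on a count. Members and lists were chosen with earlier results of these data known. Same-numbered replicates did not deviate together (correlations -0.09 to 0.02). The number of arrays limits precision. Some genes are not reported here.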

Additional observations from a re-analysis of the deposited data

Results flagged for a closer look

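Abcg8 in control liver was singled out by Dixon's gap test, with WT replicate 3 (10.21) below the other controls (10.33 to 10.34). Its gap to the nearest of them was 0.916 of the group's range, above the critical value for 4 samples. This was 1 of 18 groups checked, and chance alone singles out about 1 group in every 20 that are checked. The knockout arrays of Abcg8 covered a range several times as wide.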

How the results depend on the processing

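Of the 9 measured genes 2 were higher, and this count fell to 1 (Pltp) without any single array, with WT replicate 2 and NCOR_KO replicate 1 left out together, with the replicate block and at an adjusted p under 0.01. Lpcat3 stood at 0.30 with the block (adjusted p = 0.0836) and at 0.27 without that pair (adjusted p = 0.112), and at 0.28 to 0.32 without single arrays. Abca1, at 0.27, passed with a trended, robust variance and among brighter genes (those not below the median level). The sign turned for Abcg8 without that pair (0.0394) and, without single arrays, for Abcg1 (-0.097 to 0.0479), Abcg5 (-0.0386 to 0.162) and Abcg8 (-0.223 to 0.0306). Among named genes with changes near 0 it also turned for Cyp2e1 with quantile normalization (0.0132), Alb and Ecm1 with centred arrays (-0.0377 and -0.0086), Cyp7a1 and Alb without that pair (-0.0523 and -0.0037), and without single arrays for Alb (-0.008 to 0.022), Slc4a1 (-0.0832 to 0.0219), Cyp7a1 (-0.0226 to 0.786), Apoe (-0.0968 to 0.0028) and Ecm1 (-0.0159 to 0.0686). With the block 3 of the 10 lipogenic targets passed, not 6: Fasn gained the call, while Srebf1 (adjusted p = 0.0967), Scd1 (0.0833), Acaca (0.0558) and Pnpla3 (0.0744) lost the call, as did Cyp7b1 (0.129). Correlations gave no sign of pairing by replicate number, since 0 of 4 controls correlated best with the knockout of its own number. They cannot show that the arrays were unpaired.

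Over all genes 181 rose and 185 fell. Single arrays left out gave 67 to 139 and 53 to 158, the pair left out 102 and 100, the replicate block 84 and 71, a threshold of 0.01 54 and 34, and one of 0.1 371 and 436. With centred arrays 147 rose and 383 fell, and among brighter genes 237 and 314. Centring moved the median change of all genes from 0.01 to -0.04. The causes were not tested.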
